A study of Mus musculus with 65 samples.

Results

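The Hox genes are the transcription factor genes that give cells of the trunk and hindbrain their position along the head-to-tail axis. The members described here are 38 Hox genes of the Hoxa, Hoxb, Hoxc and Hoxd clusters, taken by name from the 25239 genes of the expression table, whatever their values. They were measured by bulk RNA sequencing of fixed and sorted cells made from HM1, one line of mouse embryonic stem (ES) cells. Every culture was first given bFGF with the Wnt secretion inhibitor LGK, and then bFGF, the Wnt agonist CHIR99021, SB-431542 and DMH1, which gives neuromesodermal progenitors (NMPs) at day 3 (D3 NMP, 3 libraries). NMPs are the cells that form both spinal cord and trunk mesoderm. From day 3 onwards, each culture received retinoic acid (RA), with 0, 10, 100 or 500 nM SAG, an agonist of Smoothened that stands in for Sonic hedgehog (Shh). Progenitors that stained for SOX2 were then sorted by intracellular staining on days 4 (16 libraries), 5 (24) and 6 (22). From ventral to dorsal they were p3 (NKX2.2 positive, 15 libraries, 100 and 500 nM SAG), pMN (OLIG2 positive, 15 libraries, 100 and 500 nM), p2 (NKX6.1 and PAX6 positive, 15 libraries, 10 and 100 nM) and p0-1 (PAX6 positive without NKX6.1, 17 libraries, 0 and 10 nM). There were 25 groups, with replicates numbered 1 to 3 that are described as independent differentiations. Of the groups, p3 at 100 nM and p2 at 10 nM on day 4 had 1 library each. Several cell types were sorted from the same culture, so the libraries outnumber the differentiations. All groups come from 1 ES cell line, and no progenitor was grown without RA after day 3, so time and RA exposure cannot be told apart.

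Within a Hox cluster, the paralogue number counts genes from the end that is active first and most anteriorly to the end that is active last and most posteriorly. Paralogue groups 1 to 3 are known for the hindbrain, groups 4 to 8 for the hindbrain-spinal cord junction, the cervical cord and the upper trunk, and groups 9 to 13 for the lower trunk, the lumbosacral cord and the tail. RA acts through nuclear receptors that bind DNA near several 3′ Hox genes, whereas Wnt and FGF signals act on the more posterior ones through the Cdx factors. Hox proteins bind DNA together with the TALE homeodomain proteins of the Pbx, Meis and Pknox families.

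The sequence upstream of 5 members is shown because they include genes called between days and Hoxb1, the gene at the 3′ end of its cluster, whose values were highest in NMPs. Each is the 250 bases before the annotated start, on the + strand of GRCm38.p6, as given by RefSeq. Capitals mark a match, on either strand, to AGGTCA (the half-site of a nuclear receptor element) or to TGATNNAT (a composite Pbx-Hox site), and no match of one motif overlapped a match of the other. The windows are chr11:96365508-96365757 for Hoxb1, chr2:74711743-74711992 for Hoxd3, chr2:74721728-74721977 for Hoxd4, chr11:96318017-96318266 for Hoxb4 and chr15:103034145-103034394 for Hoxc4. The Hoxd3 window precedes the start of its annotated span and lies over an exon of Gm38462, which runs on the opposite strand.
Hoxb1: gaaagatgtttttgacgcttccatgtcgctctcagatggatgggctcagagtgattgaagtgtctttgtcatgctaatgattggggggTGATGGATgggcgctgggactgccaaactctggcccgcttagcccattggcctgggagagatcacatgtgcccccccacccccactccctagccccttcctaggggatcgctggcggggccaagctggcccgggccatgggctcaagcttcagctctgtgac
Hoxd3: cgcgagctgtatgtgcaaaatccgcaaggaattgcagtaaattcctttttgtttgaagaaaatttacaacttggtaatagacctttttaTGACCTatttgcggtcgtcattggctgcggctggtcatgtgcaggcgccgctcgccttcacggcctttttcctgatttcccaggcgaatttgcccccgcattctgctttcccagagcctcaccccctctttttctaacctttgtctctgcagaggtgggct
Hoxd4: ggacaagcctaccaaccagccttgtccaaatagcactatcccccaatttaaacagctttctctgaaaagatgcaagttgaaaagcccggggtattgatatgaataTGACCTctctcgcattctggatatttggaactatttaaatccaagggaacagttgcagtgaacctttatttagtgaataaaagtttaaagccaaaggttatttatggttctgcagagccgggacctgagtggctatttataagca
Hoxb4: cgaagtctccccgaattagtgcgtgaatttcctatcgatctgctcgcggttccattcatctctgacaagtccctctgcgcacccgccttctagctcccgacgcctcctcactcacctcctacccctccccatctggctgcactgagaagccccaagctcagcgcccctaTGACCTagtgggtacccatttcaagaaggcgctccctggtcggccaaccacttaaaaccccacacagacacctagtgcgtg
Hoxc4: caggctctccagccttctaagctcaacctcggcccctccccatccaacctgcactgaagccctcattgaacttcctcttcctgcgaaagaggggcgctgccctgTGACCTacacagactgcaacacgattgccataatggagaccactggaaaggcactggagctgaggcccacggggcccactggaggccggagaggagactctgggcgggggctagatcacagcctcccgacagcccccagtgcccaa

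Hoxd3, Hoxd4, Hoxb4 and Hoxc4 each hold 1 match to AGGTCA, here read on the opposite strand, and Hoxb1 holds 1 match to TGATNNAT. Windows were given for 22 of the 38 members (24 windows). AGGTCA occurred in 6 of the 24 (25%), among them those of Hoxd8, which limma called in no comparison, and Hoxd10, which was not tested, and in 14% of the 32851 windows of all genes. TGATNNAT occurred in 4 of the 24 (16.7%) and in 7.68% of all windows. The motifs were chosen after the sequences were known, and a match is a run of letters, not a measured site.

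The values are normalized reads, that is, the number of reads assigned to a gene divided by a size factor of the library. Libraries held 7615114 to 13484815 assigned reads and detected 9718 to 15963 genes. The library of day 4 p3 at 100 nM (replicate 3) detected the fewest genes (9718) and reads of 10 members only, against 12 to 23 members in the other libraries. The labelled identities were checked against their defining markers. On days 5 and 6, Nkx2-2 had 121 to 426 normalized reads in p3 and 0 in all 12 libraries of p0-1, and Olig2 had 1368 to 6214 in pMN, 0 to 1741 (median 769) in p3, 0 to 1452 (median 148) in p2 and at most 103 in p0-1. Olig2 RNA was thus also read in libraries of p3 and p2. T, Cdx1, Cdx2, Nkx1-2 and Fgf8 summed to 3044 to 6246 normalized reads in D3 NMP, and Msgn1, which defines presomitic mesoderm, had 0 reads on every day. The neural crest markers summed to 114 at most, and Sox10 had 0 reads on days 5 and 6. As these are bulk samples, fewer cells that express a gene and less RNA per cell cannot be told apart.

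More members of the low paralogue groups than of the high ones had values high enough for a test. All 7 members of groups 1 to 3 had a mean of at least 10 normalized reads over the 65 libraries, the minimum for testing. Of the 15 members of groups 4 to 8, 12 reached it, and of the 16 members of groups 9 to 13 only Hoxb9 did. A mean can rest on few libraries. Hoxd1 and Hoxa7 reached the minimum with reads in 16 and 25 libraries, whereas Hoxb8 and Hoxc6 did not, with reads in 49 and 26. By cluster, 6 of 10 Hoxa, 8 of 10 Hoxb, 2 of 9 Hoxc and 4 of 9 Hoxd members reached it. Hoxa11, Hoxa13 and Hoxc10 had 0 reads in every library, where a count of 0 still allows up to 3 reads in a library (counting error only).

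The other untested members had reads in some libraries. Hoxb8, Hoxc6 and Hoxc8, the 3 untested members of groups 4 to 8, had means of 8.15, 4.02 and 1.09 and exceeded 3 reads in 32, 21 and 4 libraries. The 12 remaining untested members of groups 9 to 13 had means up to 1.71. Some of these reached their highest value in a single library. Hoxd13, a gene of the tail end of its cluster, had 86.8 normalized reads in 1 library of day 5 p2 at 100 nM and 13.5 in NMP replicate 2. Hoxb13 had 94.9 in 1 library of day 4 p3 at 500 nM, and Hoxc13 71.3 in 1 library of day 4 p0-1 at 10 nM. None of these genes exceeded 3 reads in more than 3 libraries.

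**Figure D1:**
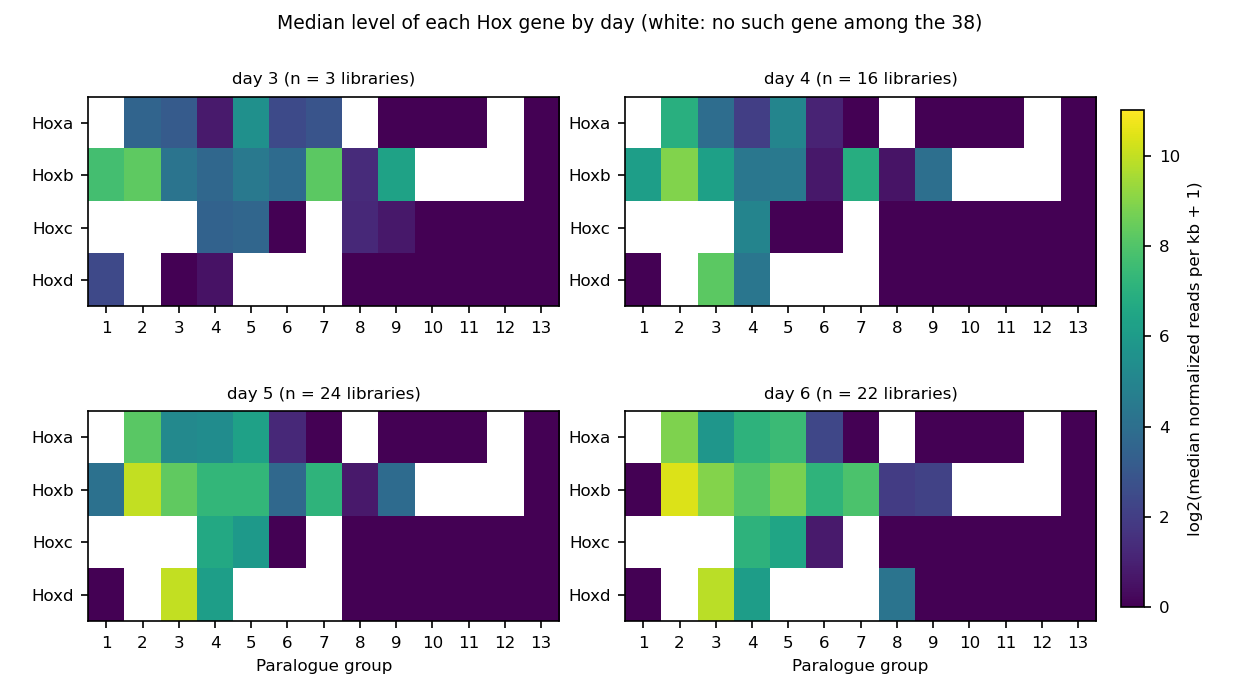
Median level of each of the 38 Hox genes on days 3, 4, 5 and 6, with the cluster on the vertical axis, the paralogue group on the horizontal axis and log2(median normalized reads per kb of exon + 1) in color. The Hoxd3 median went from 0 to 2695 normalized reads between day 3 and day 6, that of Hoxb9 from 217 to 9.34, and every member of groups 10 to 13 had a median of 0 on each day.

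Levels of different genes are compared per kb of exon. Summed over groups 1 to 3, the median level was 576 normalized reads per kb in D3 NMP and 1146, 2755 and 3690 on days 4, 5 and 6. For groups 4 to 8 it was 509 in D3 NMP, 315 on day 4, 914 on day 5 and 1933 on day 6. For groups 9 to 13 it was 89.1 in D3 NMP and 24.9, 13.8 and 3.46 thereafter. The share of groups 9 to 13 in the summed Hox level was 5.00 to 7.70% in the 3 NMP libraries, and 0 to 1.55% in the 22 libraries of day 6. The share of the Hoxb cluster was 82.5 to 89.4% in D3 NMP and 48.4 to 66.25% on day 6, while that of the Hoxd cluster was 0.334 to 2.06% and 13.1 to 30.9%. These shares are descriptions of the libraries without a test. The number of reads on all members ran from 10.8 to 207 per 100000 assigned reads.

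**Figure D2:**
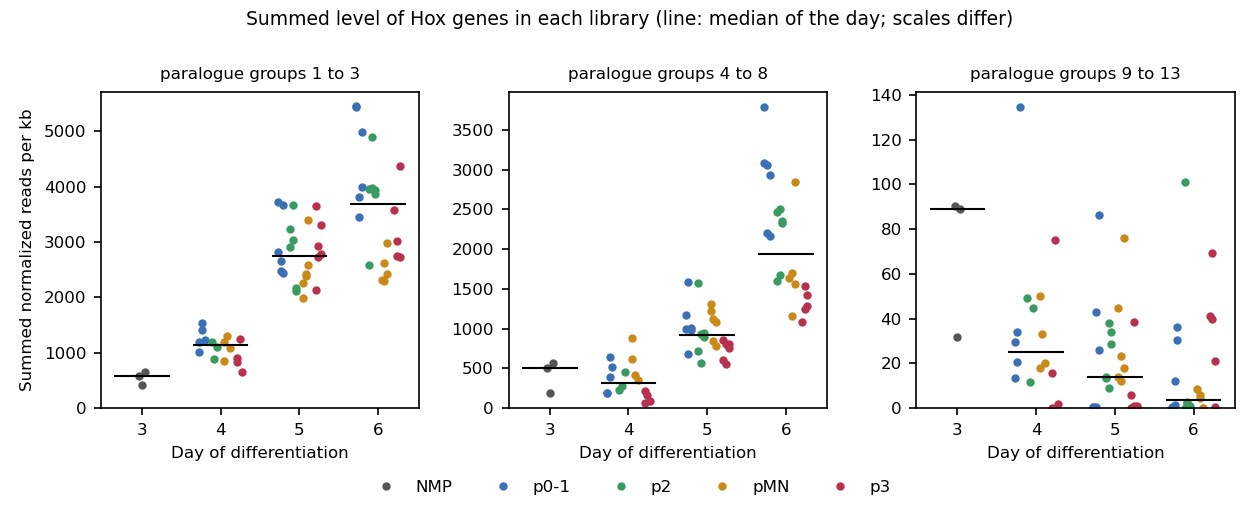
Summed normalized reads per kb of exon of the Hox genes of paralogue groups 1 to 3, 4 to 8 and 9 to 13 (vertical axes, different scales) against the day of differentiation, 1 point per library colored by cell type, with the median of each day as a line. The medians of groups 1 to 3 went from 576 to 3690 and those of groups 9 to 13 from 89.1 to 3.46 between day 3 and day 6.

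D3 NMPs already expressed part of the Hoxb cluster. Hoxb1, the most 3′ gene of that cluster, had 381, 622 and 432 normalized reads in NMP replicates 1, 2 and 3. Hoxb2 had 505, 146 and 614, Hoxb7 had 377, 155 and 507, and Hoxb9 had 217, 49.5 and 240. Replicate 2 was the lowest of the 3 for Hoxb2, Hoxb7 and Hoxb9 and the highest for Hoxb1. Per kb, the medians were 310 for Hoxb2, 297 for Hoxb7, 208 for Hoxb1 and 80.6 for Hoxb9, and the next member was Hoxa5 with 45.6. The order among Hoxb2, Hoxb7 and Hoxb1 is not resolved, since their 3 values overlap. Of the other clusters, Hoxa5 led with 111, 22.5 and 85.6 normalized reads. Hoxd3 had 5.79, 0 and 0, and Hoxd8 had 0 in each replicate.

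To ask which Hox genes changed as NMPs became neural progenitors, the 8 groups of day 4 were compared with D3 NMP. The paralogue group 3 genes Hoxd3 and Hoxb3 and the group 4 gene Hoxd4 rose, and no member fell. That is 3 of the 20 members tested called higher, where 1.32% of the 13964 genes tested were called higher and 2.18% lower (limma, adjusted p under 0.01 and a change over 2-fold). At an unadjusted p under 0.05 there were 5 of the 20 members, against 2426 of the 13964 genes in either direction. These 5 members were all higher, and Hoxa2 and Hoxb2 were those not called. The median log2 change of the 20 members was 0.24, that of all genes tested −0.40. By edgeR 0 members were called lower and by DESeq2 1 (Hoxa7).

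Hoxd3, a hindbrain and cervical gene, had 5.79, 0 and 0 normalized reads in D3 NMP and 283 to 1313 (median 861) in the 16 libraries of day 4. The groups did not overlap. Its log2 change was 8.48 ± 0.33 (SE, adjusted p = 3.99e-26 by limma), and 5.88 with a pseudocount of 10 in place of 1. Hoxd4, its neighbor in the cluster, had 4.13, 1.13 and 0 in D3 NMP and 0 to 113 (median 49.1) on day 4. The groups overlapped, and 15 of 16 day 4 libraries lay above the NMP median. The log2 change was 3.69 ± 0.85 (SE, adjusted p = 0.00257 by limma). It was not called by edgeR, with a pseudocount of 10, or without NMP replicate 2 or NMP replicate 3 (adjusted p = 0.0709 without the latter).

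Hoxb3 had 66.1, 14.6 and 211 in D3 NMP and 57.3 to 583 (median 277) on day 4, so that the groups overlapped. The log2 change was 2.12 ± 0.43 (SE, adjusted p = 0.000515 by limma). Without NMP replicate 2, in which Hoxb3 was lowest, the adjusted p was 0.196, and edgeR did not call it either. The D3 NMP group holds 3 libraries, and 1 of them decides this call.

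Hoxb2, with the highest NMP median (505), had a higher median on day 4 (796) and was not called. By contrast, Hoxb1, Hoxb9, Hoxb7 and Hoxc5 were among the members with lower medians on day 4, without passing the test. Hoxb1 ran from 0 to 515 on day 4 (median 148, log2 change −2.76, 95% interval −6.32 to 0.809). Hoxb9 ran from 0 to 344 (median 41.1, −2.87, −6.45 to 0.724), and Hoxb7 from 3.66 to 627 (median 145, −1.68, −3.50 to 0.145). Hoxc5 had 10.8, 31.5 and 82.9 in NMPs and a day 4 median of 0, with a highest value of 179 (−2.98, −6.12 to 0.164). Each of these intervals includes 0 and also decreases far past 2-fold.

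**Figure D3:**
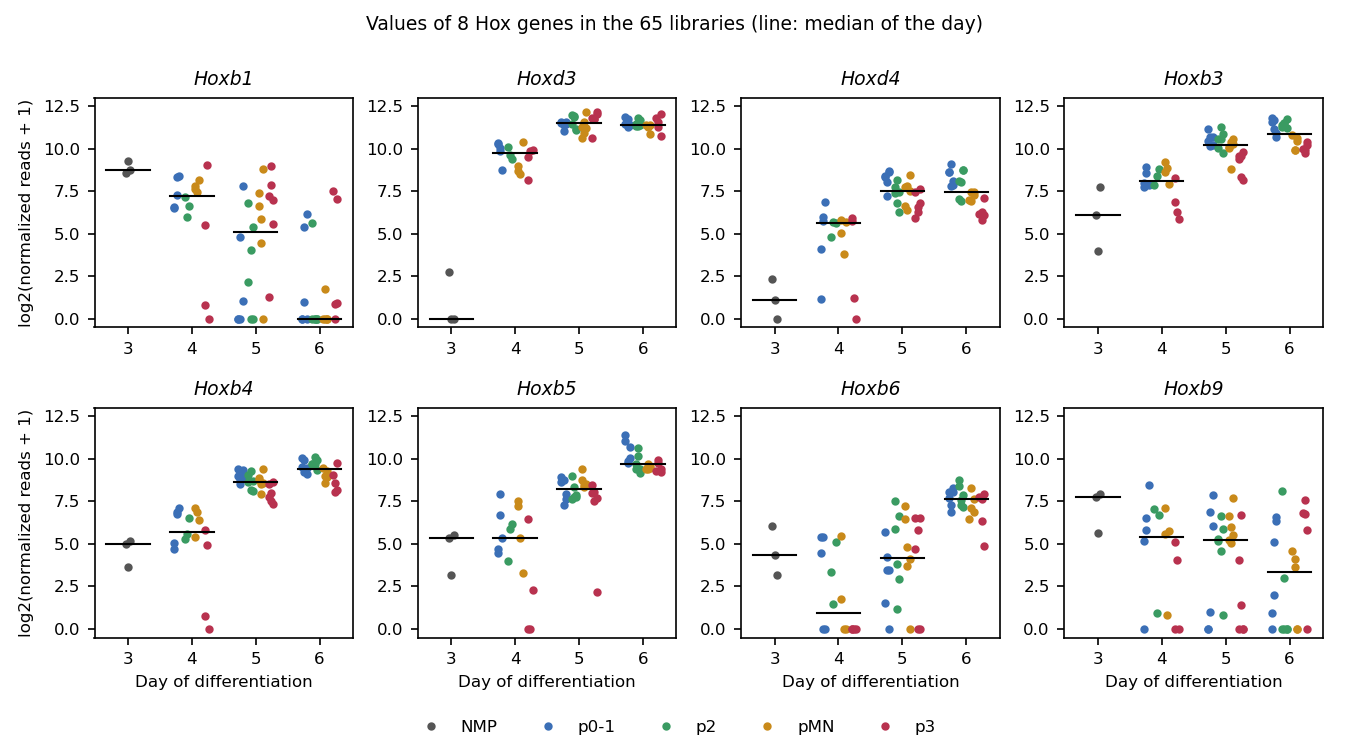
log2(normalized reads + 1) of 8 Hox genes (vertical axis) against the day of differentiation, 1 point per library colored by cell type, with the median of each day as a line. Hoxd3 had 0 to 5.79 normalized reads on day 3 and at least 283 from day 4, Hoxb4 did not overlap between days 4 and 5, Hoxb6 had at least 27.9 in every library of day 6, and Hoxb1 had a median of 0 on day 6.

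The genes that act on or with the Hox genes changed at this step too. Among the cofactor genes, Meis1, Meis2 and Meis3 were called higher and none lower. Meis1, with 0, 0 and 81.8 as its lowest, median and highest NMP values, ran from 584 to 2387 on day 4 (log2 change 8.27, limma adjusted p = 3.23e-17), and the changes of Meis2 and Meis3 were 7.05 and 1.90. Of the 13 axial regulators 12 were tested, 1 was called higher and 5 lower. Rarb, a retinoic acid receptor gene that RA itself induces, went from 15.8 to 69.3 in NMPs to 244 to 1658 on day 4 (log2 change 4.95). The 5 lower genes were Cdx1, Cdx2, T, Wnt3a and Fgf8, and Cdx4, untested, went from 129 to 189 to at most 1 read. Cdx1 and Cdx2 encode activators of the middle and posterior Hox genes. Gdf11, Nr6a1, Lin28a and Lin28b, regulators of the trunk-to-tail transition and of developmental timing, were not called.

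Markers of other cell types moved at the same step. The 5 NMP markers were all called lower and summed to 0 to 551 on day 4, 2 of 2 tested pluripotency markers were called lower, and 4 of 5 neural progenitor markers were called higher. Of the sort markers 3 of 4 were called higher, of the neuron markers 1 of 5 (Elavl4) and of the paraxial mesoderm markers 0 of 3, with 0 at an unadjusted p under 0.05. The part that a change in cell makeup has in the Hox values was not tested. Of the anterior identity genes 3 of 9 could be tested and none was called. Otx2, the forebrain and midbrain gene, had 42.1 to 69.8 in D3 NMP and at most 6.57 later.

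From day 4 to day 5, Hox genes of the hindbrain and cervical groups rose. Of the 20 tested members 10 were called higher, where 3.1% of all genes tested were, and 0 were called lower, where 1.2% were (limma). They were all in paralogue groups 2 to 5: Hoxa2, Hoxb2, Hoxb3, Hoxd3, Hoxa4, Hoxb4, Hoxc4, Hoxd4, Hoxb5 and Hoxc5. At an unadjusted p under 0.05 there were 12 of the 20 members, all higher, against 3422 of the 13964 genes in either direction. The median change of the members was 1.64 on the log2 scale and that of all genes 0.01. By edgeR 10 were called higher and by DESeq2 14, with 0 lower in both.

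Hoxb4, a gene of the cervical cord, had 0 to 137 normalized reads on day 4 (median 50.3) and 164 to 676 on day 5 (median 401). The lowest day 5 library lay above the highest of day 4. The log2 change was 3.41 ± 0.33 (SE, adjusted p = 7.59e-11 by limma). Hoxd3 did not overlap either, with 283 to 1313 on day 4 and 1563 to 4571 on day 5 (median 2912, log2 change 2.09 ± 0.17, limma adjusted p = 9.14e-13). In these 2 genes each of the 24 libraries of day 5 lay above each of the 16 of day 4, though these libraries come from fewer differentiations. How many of all genes tested separate in this way was not counted, here or in the other comparisons.

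For the other members the days overlapped. Hoxb3 rose from 57.3 to 583 on day 4 to 279 to 2448 on day 5 (median 1169, log2 change 2.02). Hoxc4 rose from a median of 59.4 to 195 (2.10), and its cluster neighbor Hoxc5 from a median of 0, with a highest value of 179, to a median of 168, with a highest of 537 (3.89). Hoxc5 stayed at 0 in some libraries of both days, and 20 of 24 day 5 libraries lay above the day 4 median. Hoxd4 rose from a median of 49.1 to 179 (2.58) and Hoxb5 from 39.6 to 293 (3.29). In 1 library of day 5 p3, Hoxb5 had only 3.52 normalized reads.

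Hoxb2 and Hoxa2, the group 2 genes, pattern the hindbrain. Hoxb2 was already at 438 to 1244 on day 4 (median 796) and reached 769 to 2894 on day 5 (median 1636), a log2 change of 1.01 ± 0.19 (SE, adjusted p = 0.000114 by limma). This lies just past the 2-fold limit, and the call held in 58 of 72 alternatives, and was lost with the replicate number as a block. Hoxa2 was spread from 0 to 786 on day 4 (median 214) and from 242 to 1146 on day 5 (median 510), a log2 change of 2.75 ± 0.49 (limma adjusted p = 5.58e-05). Without the day 4 p3 library at 100 nM, where Hoxa2 had 0 reads, its adjusted p was 0.0191. Hoxa4, with a median of 4.79 on day 4 and 60.1 on day 5 (log2 change 2.91, limma adjusted p = 0.00932), was called in 28 of 72 alternatives. Without that same day 4 p3 library 8 members were called. As it is the only library of its group, these refits also leave p3 at 100 nM on day 5 out of the comparison.

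**Figure D4:**
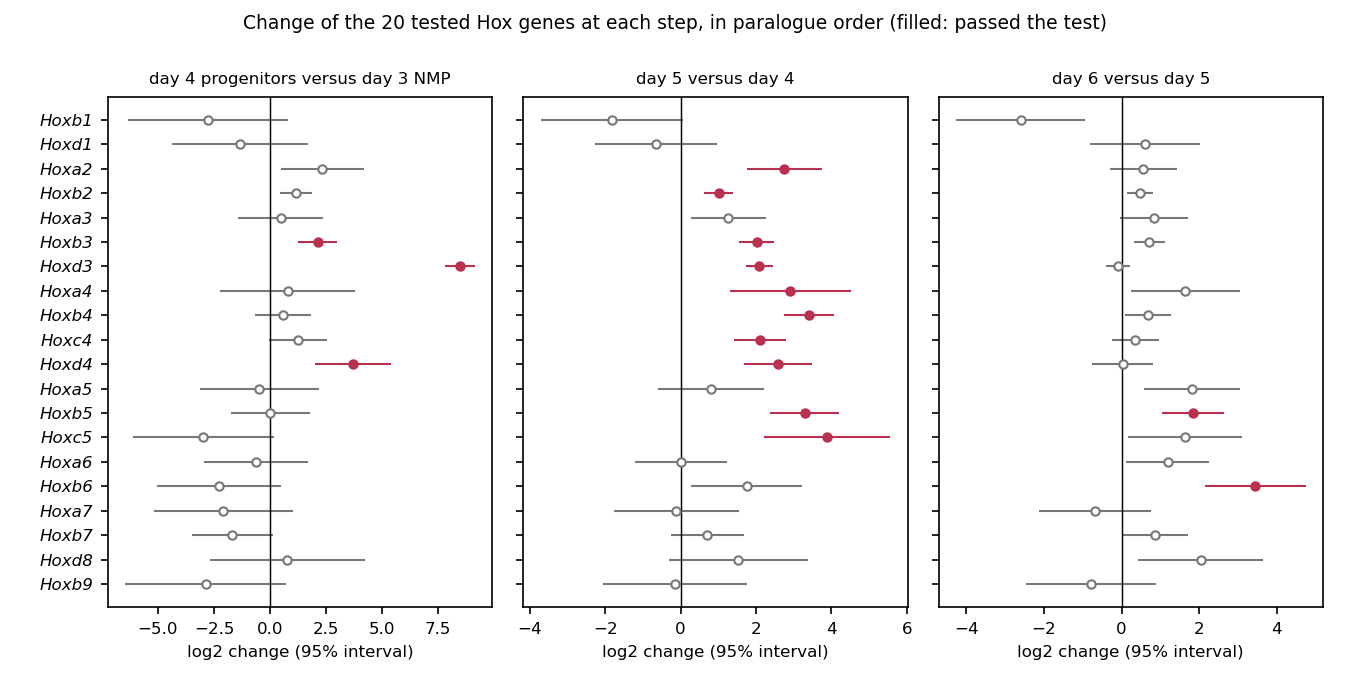
log2 change with its 95% interval (horizontal axes) of the 20 tested Hox genes in paralogue order (vertical axis) at each of 3 steps, where filled points passed the test. The called genes lie in groups 3 and 4 at the first step (3 genes), in groups 2 to 5 at the second (10 genes) and in groups 5 and 6 at the third (2 genes).

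Members of groups 1 and 6 to 9 were not called at this step. Hoxb1 had 0 to 503 on day 5 (median 33.8, log2 change −1.82, 95% interval −3.71 to 0.0734). The group 9 gene Hoxb9 had 0 to 233 (median 36.3) against 0 to 344 (median 41.1) on day 4 (log2 change −0.14, −2.05 to 1.76). Hoxb7 had a day 5 median of 177 against 145 (0.70, −0.266 to 1.67). Hoxa7 had a median of 0 on days 4, 5 and 6, with reads in 25 libraries of 65 and up to 364 normalized reads in 1 of them.

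At the same step no cofactor gene was called in either direction (5 of 9 at an unadjusted p under 0.05). Of the axial regulators 1 of 12 was called, Aldh1a2, the gene of the enzyme that makes RA, which was lower (80.4 on day 4 as a median, 0 reads in all 24 libraries of day 5). Of the anterior identity genes, Egr2, which marks hindbrain segments, was called lower, with medians of 6.29 and 0, as was Gbx2, a gene of the anterior hindbrain, with medians of 430 and 208. The log2 changes were −2.78 and −1.80. Of the 5 neuron markers, 3 were called higher (Elavl3, Elavl4 and Dcx) and 1 lower (Stmn2), and their sum went from 222 to 1241 on day 4 to 203 to 2360 on day 5. Of the NMP markers 1 of 5 was called lower (Nkx1-2), and none of the neural progenitor, paraxial mesoderm, pluripotency or sort markers was called. Their part in the Hox changes was not tested.

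From day 5 to day 6, Hoxb5 and Hoxb6, genes of the lower cervical and upper thoracic cord, rose. They were 2 of 20 members called higher, where 0.501% of all genes were, and 0 members were called lower, where 0.351% were (limma). At an unadjusted p under 0.05 there were 12 of the 20 members, of which Hoxb1 alone was lower, against 2279 of the 13964 genes in either direction. The median log2 change of the members was 0.70 and that of all genes 0.00. By edgeR there was 1 called higher, and by DESeq2 2 higher and 2 lower (Hoxa7 and Hoxb1).

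Hoxb6 had 0 to 183 normalized reads on day 5 (median 17.0) and 27.9 to 428 on day 6 (median 199.8). It had at least 27.9 in every library of day 6, after being at or near 0 in many of days 4 and 5, where the day 4 median was 0.907. The log2 change was 3.45 ± 0.64 (SE, adjusted p = 0.000459 by limma), and edgeR gave an adjusted p of 0.0382. Hoxb5 had 3.52 to 661 on day 5 (median 293) and 564 to 2646 on day 6 (median 826). All 22 libraries of day 6 lay above the day 5 median, and the log2 change was 1.84 ± 0.40 (limma adjusted p = 0.00307).

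Hoxb1 was at 0 to 179 on day 6, with a median of 0. Its log2 change from day 5 was −2.60 ± 0.83 (SE, adjusted p = 0.0639 by limma), which did not pass. Hoxa5 (1.81, adjusted p = 0.0847), Hoxa4 (1.64, 0.205) and Hoxd8 (2.03, 0.162) had positive changes that did not pass the limma test either. Hoxd8 had a median of 0 on day 5 and 38.1 on day 6, with 863.5 in 1 library of p2 at 100 nM, in which Hoxd1 also had its highest value (424). Hoxd3 and Hoxd4 had changes near 0. Hoxd3 had medians of 2912 and 2695 on days 5 and 6 (log2 change −0.08, 95% interval −0.391 to 0.226), and Hoxd4 had medians of 179 and 175 (0.02, −0.771 to 0.818).

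Set against the median of day 6, the members reached their levels at different times. Hoxd3 stood at 0% on day 3, 31.9% on day 4 and 108% on day 5, and Hoxd4 at 0.643%, 28.1% and 102%. Hoxb2 stood at 22.7%, 35.7% and 73.4%, and Hoxb3 at 3.59%, 15.0% and 63.5%. Hoxb4 stood at 4.55%, 7.48% and 59.6%, Hoxb5 at 4.80%, 4.80% and 35.5%, and Hoxb6 at 9.57%, 0.454% and 8.51%. Within the Hoxb cluster, the share reached by day 5 was thus lower from Hoxb2 to Hoxb3, Hoxb4, Hoxb5 and Hoxb6 in turn. Hoxb7 did not continue this order, with 125%, 47.9% and 58.7%. Nor did the Hoxa cluster follow it, where Hoxa2, Hoxa3, Hoxa4 and Hoxa5 stood at 60.6%, 65.1%, 28.2% and 43.0% on day 5. These are ratios of medians without a test of the order. The comparisons of day 5 with day 4 and of day 6 with day 5 share the day 5 libraries, and a high day 5 value moves them in opposite directions.

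In the other lists few genes were called at the last step. No cofactor gene was called (1 of 9 at an unadjusted p under 0.05). Among the axial regulators 1 of 12 was called, Lin28a, an RNA-binding protein gene of developmental timing, which fell from 279 to 3300 on day 5 (median 770.5) to 92.3 to 868.5 on day 6 (median 296.5, log2 change −1.55). No anterior identity, neural progenitor, NMP, paraxial mesoderm, pluripotency or sort marker was called, and 2 of 5 neuron markers were called higher (Elavl3 and Dcx). All 5 neuron markers were higher at an unadjusted p under 0.05 (limma), with a median log2 change of 1.87. The neuron marker sum was 203 to 2360 on day 5 (median 1401) and 1048 to 6105 on day 6 (median 3064). Its part in the Hox values was not tested.

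To ask whether dorsoventral identity carries a difference in Hox expression, neighboring cell types were compared over days 5 and 6. Of these pairs only p3 and pMN came from the same SAG concentrations. No Hox gene was called in p3 versus pMN, pMN versus p2 or p2 versus p0-1 (limma). The shares of all genes called were 0.695%, 0.107% and 0.322%. At an unadjusted p under 0.05 there were 2, 3 and 1 of the 20 members, against 1573, 1480 and 1139 of the 13964 genes. By edgeR the counts were also 0, while DESeq2 called 1 in each, namely Hoxb1, Hoxa7 and Hoxb1. The median log2 changes of the members were −0.43, −0.29 and −0.17, and those of all genes −0.09, 0.09 and −0.05. Hoxd3 and Hoxb2 were the most precisely measured. The interval of Hoxd3 ran from −0.148 to 0.75 in p3 versus pMN, from −0.732 to 0.141 in pMN versus p2 and from −0.357 to 0.49 in p2 versus p0-1, and that of Hoxb2 from −0.824 at the lowest to 0.818 at the highest. For members with many zeros it was wide, as for Hoxb1 in p3 versus pMN (−0.591 to 4.26).

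Between the ends of the series, p3 and p0-1, Hoxb3 was lower in the ventral cells, 1 of 20 members called against 1.43% of all genes. The p3 libraries came from 100 and 500 nM SAG and those of p0-1 from 0 and 10 nM. Cell type and SAG concentration thus cannot be told apart in this comparison. In p3, Hoxb3 had 279 to 883 normalized reads on day 5 (median 709) and 852 to 1315 on day 6 (median 987.5). In p0-1 it had 1130 to 2312 on day 5 (median 1523) and 1625 to 3572 on day 6 (median 2633). On each day the highest p3 library lay below the lowest p0-1 library, while over both days the 2 ranges overlapped. The log2 change was −1.34 ± 0.28 (SE, adjusted p = 0.00185 by limma). With quantile normalization the limma adjusted p was 0.0288, and Hoxb3 was not called. The medians over both days were 852 in p3, 1222 in pMN, 2396 in p2 and 1779 in p0-1, and the 3 differences between neighbors did not pass the test (p3 versus pMN −0.59, limma adjusted p = 0.443, and pMN versus p2 −0.80, adjusted p = 0.239).

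**Figure D5:**
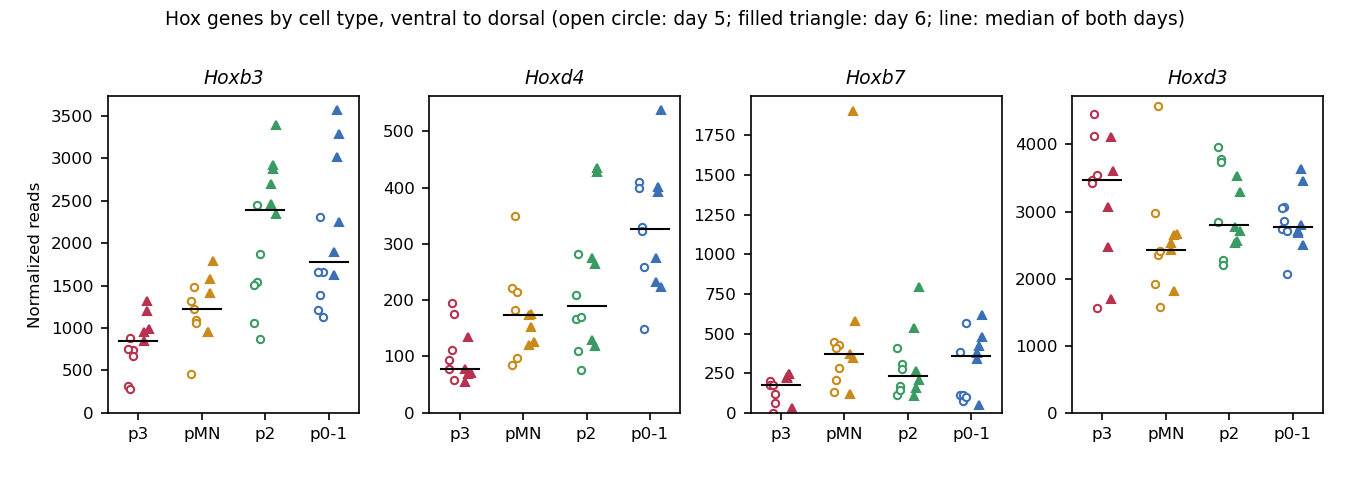
Normalized reads (vertical axes) of Hoxb3, Hoxd4, Hoxb7 and Hoxd3 in p3, pMN, p2 and p0-1 (horizontal axis, ventral to dorsal), with open circles for day 5 libraries, filled triangles for day 6 libraries and a line at the median of both days. Hoxb3 had medians of 852 in p3 and 1779 in p0-1, whereas Hoxd3 had 3470 and 2762 with ranges that overlapped.

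Other members had lower p3 values without passing the test. Hoxd4 had 53.9 to 195 in p3 (median 77.5) and 149 to 538 in p0-1 (median 327), with a log2 change of −1.76 ± 0.56 (SE, adjusted p = 0.0633 by limma). With a pseudocount of 10 it was called, as it was by DESeq2. Hoxb4 had medians of 285 and 613 (−0.95, limma adjusted p = 0.224), and Hoxa4 had medians of 41.1 and 222 (−2.64, adjusted p = 0.138). Hoxb7 had 0 to 244 in p3 and 121 to 1904 in pMN (log2 change −1.92, limma adjusted p = 0.125). Hoxb1 had the opposite sign, with a median of 126 in p3 and 0.507 in p0-1 (2.63, limma adjusted p = 0.244). The median log2 change of the 20 members was −0.76 and that of all genes −0.07. At an unadjusted p under 0.05 there were 5 of the 20 members, of which Hoxb1 alone was higher, against 2222 of the 13964 genes in either direction.

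No cofactor or axial regulator gene was called in any of these 4 comparisons. At an unadjusted p under 0.05 there were at most 3 of 9 cofactors and 2 of 12 axial regulators in any of them. Of the sort markers all 4 were called between p3 and p0-1, 2 between p3 and pMN (Nkx2-2 and Pax6, not Olig2), 1 between pMN and p2 (Olig2) and 2 between p2 and p0-1 (Olig2 and Nkx6-1). The neuron marker sum was 684 to 3208 in p3 and 203 to 2364 in p0-1, with Elavl4 called higher in p3, and its part in the Hoxb3 difference was not tested.

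To ask whether the SAG concentration changed Hox expression within a cell type, the higher of the 2 concentrations of each type was compared with the lower over days 5 and 6. The differences were averaged over the cell types and both days, so a change within a single cell type was not tested. No member was called, and none had an unadjusted p under 0.05 (limma). Of the 13964 genes tested 0.00716% were called, and 848 had an unadjusted p under 0.05. By edgeR the count was 0 and by DESeq2 1 (Hoxa7). The log2 changes of the members ran from −1.03 to 1.04. The interval was −0.298 to 0.319 for Hoxd3, −0.493 to 0.311 for Hoxb3, −0.625 to 0.0431 for Hoxb2 and −0.757 to 0.412 for Hoxb4. For these 4 genes an average change of 2-fold lies outside the interval. For Hoxa7 it ran from −0.418 to 2.49. Neither a cofactor gene (1 of 9 at an unadjusted p under 0.05), an axial regulator nor an anterior identity gene was called.

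Whether the rise over time differed between the most ventral and the most dorsal cells was asked by comparing the change from day 4 to day 6 in p3 with that in p0-1. These cell types share no SAG concentration, so cell type and SAG cannot be told apart here either. No member was called, while 3.03% of all genes were (limma). At an unadjusted p under 0.05 there were 7 of the 20 members, against 2117 of the 13964 genes. By edgeR the count was 0 and by DESeq2 2 (Hoxa2 and Hoxb4). On day 4, Hoxa2 had 174, 1.57 and 105 normalized reads in p3 at 500 nM and 0 in the single p3 library at 100 nM, against 158.5 to 478.5 in the 5 libraries of p0-1. By day 6 it had 362 to 989 in p3 and 768 to 1775 in p0-1. The difference of the changes was 4.95 ± 1.39 on the log2 scale (SE, adjusted p = 0.0223 by limma). Without the p3 library at 100 nM Hoxa2 was not called. As that library is the only one of its group, the day 6 p3 group at 100 nM then drops out too. The change in p3 is in that case taken at 500 nM only. Hoxb4 had a difference of 3.00 (limma adjusted p = 0.0507), with 0 to 54.4 in p3 and 24.6 to 137 in p0-1 on day 4. The median of the members was 0.99 and that of all genes 0.34. Of the other lists, only Aldh1a2 among the axial regulators was called, with 0 reads in p3 on both days.

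Some members share exons with a gene on the opposite strand, and whether the counting used the strand is not stated. The shared part was 20.6% of the exon length of Hoxb2 and 1.69% of Hoxb3 (both with Hoxb3os), 16.4% of Hoxa3 (Hoxaas2 and Hoxaas3), 24.8% of Hoxa11 (Hoxa11os), and 2.27% of Hoxd3 and 3.94% of Hoxd8 (both with Gm38462). For these 6 members the reads of both genes may be mixed. The annotated Hoxd3 gene on chromosome 2 (74711993 to 74748271) spans Hoxd4 (74721978 to 74729159) on the same strand without sharing exons. The Hoxb cluster members lie on chromosome 11, from Hoxb13 (96194316) to Hoxb1 (96368253), the Hoxa members on chromosome 6 and the Hoxc members on chromosome 15.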

How the data were processed

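The authors sequenced polyadenylated RNA of 65 fixed and sorted libraries (SMART-Seq HT, Nextera XT), aligned the reads to mm10 with STAR in the nf-core RNA-seq pipeline, counted them per refGene gene with featureCounts ignoring duplicates, and removed poor libraries. Whether strand was used is not given in the sources used here. The deposited values are a signal, namely reads divided by a size factor per library. Of the 834400 values above 0, 100.0% were whole multiples of 1 read (tolerance 0.001 reads), and 1 read was worth 0.717 to 1.36 normalized reads. Depth was 7615114 to 13484815 assigned reads. No 2 libraries were identical, and 0 columns mapped to no sample.

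Groups followed the labels (25 groups). Replicates are described as independent differentiations. limma 3.58.1 (R 4.3.3) was fitted to log2(value + 1) of the 13964 genes whose mean reached 10, with 1 mean per group over all 65 libraries and a trended prior, and p-values were adjusted over all genes tested (Benjamini-Hochberg). Since a pseudocount was added, fold changes of genes with low values or with libraries at 0 depend on it. With a pseudocount of 10 in place of 1, the log2 change of Hoxa2 from day 4 to day 5 was 2.02 in place of 2.75. That of Hoxb4 in day 4 versus D3 NMP was 0.72 in place of 0.57. A gene was called at an adjusted p under 0.01 and over 2-fold. Group means were weighted equally. Cell types and SAG were compared over days 5 and 6. The script was tested on simulated data. Python 3.11.15, pandas 2.3.3 and numpy 2.4.6 were used for the summaries, which give levels between genes per kb of exon. Alternatives were a pseudocount of 10, a minimum mean of 100, no filter, quantile normalization, a replicate block, edgeR 4.0.16 and DESeq2 1.42.0 on the recovered reads, and leaving out each library (72 in all).

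All members were accounted for, and every called member was named with its value. The lists were Hox cofactors, axial regulators, anterior identity genes and markers of other cell types. The members and the lists were chosen with earlier results of these data known. Promoter windows came from RefSeq (GRCm38.p6), and 16 members had none. The values of some listed genes are not reported here.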

Additional observations from a re-analysis of the deposited data

How the results depend on the processing

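Of the counts of called Hox genes, those from day 4 to day 5 stayed within 1.5 times of 10 under every alternative run. For day 4 versus D3 NMP (3 called), quantile normalization gave 6 and edgeR 1, and leaving out 1 library gave 1 to 4, with 1 without NMP replicate 2, 2 without NMP replicate 3 and 4 without replicate 2 of day 4 pMN at 100 nM. For day 6 versus day 5 (2 called), a minimum mean of 100 gave 1, edgeR 1 and DESeq2 4. With DESeq2, p3 versus pMN, pMN versus p2, p2 versus p0-1 and the SAG comparison each gave 1 (0 by limma), the difference in change between p3 and p0-1 gave 2 (0 by limma) and p3 versus p0-1 gave 3 (1 by limma), where a pseudocount of 10 gave 2 and quantile normalization 0. Leaving out 1 library gave 0 to 1 for the difference in change and 8 to 10 for day 5 versus day 4. Where that library was the only one of its group, these comparisons lost its combination of cell type and SAG on both days. The day 5 versus day 4 change of Hoxa7, which had reads in 25 libraries, was −0.12 by limma and 5.205 by DESeq2 (adjusted p = 0.00538). The cause of these differences was not tested. Of the values of single genes, 67 lost the call, 24 gained it and 1 turned its direction. Single genes that kept direction and side of the threshold and summed levels that moved by less than 1 SD came to 2432 together. Coding length is shorter than exon length in every member, so summed levels per kb of coding length are higher. In 11 values the rise was at least 1 SD of the libraries of that day.

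The study sorted several cell types from one culture. The labels do not say which libraries share a dish, and the replicate numbers were not taken to pair the samples. Libraries of the same number in different groups had a median correlation of 0.0162 (634 pairs, 5 over 0.1), those of other numbers −0.00793 (1262 pairs, 0 over 0.1). Within a day the medians were 0.0334 (186 pairs, 3 over 0.1) and −0.0189 (358 pairs, 0 over 0.1). With the number as a replicate block, 3 members were called on day 4 versus D3 NMP, 9 on day 5 versus day 4 (Hoxb2 was lost), 2 on day 6 versus day 5, 1 in p3 versus p0-1 and 0 in the other comparisons. Of the posterior members, 8 had at most 3 reads in any library. Whether depth limited their detection was not tested. On day 4, 2 groups held 1 library.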
